A study of Mus musculus with 3 samples.

Results

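The genes described here encode the proteins of the cytosolic and of the mitochondrial ribosome in αTC1-6 cells, a glucagon-producing mouse line that is 1 clone of a tumour line made with an SV40 large T antigen transgene under a glucagon gene promoter. They were chosen by symbol, as protein-coding genes named Rpl or Rps with a number, Rplp0 to Rplp2 or Rpsa for the cytosolic class, and Mrpl or Mrps with a number for the mitochondrial class. Of 52948 gene IDs in the files, 164 matched, 86 cytosolic and 78 mitochondrial. A mean level of at least 1 FPKM over the libraries was then required (fragments scaled to transcript length and to the read total of the library). This was passed by 160, 83 cytosolic and 77 mitochondrial, out of 12950 genes past the same filter. Cells were infected for 16 h with an adenovirus for β-galactosidase (β-Gal, the control), for NIK (Map3k14, the NF-κB-inducing kinase) or for NIK(KA), a kinase mutant of it, and all 3 groups therefore carried a virus. Each group was 1 library, so no value below has a replicate check and no test between groups was possible.

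Ribosomes translate mRNA with a small subunit that decodes and a large subunit that forms peptide bonds. The cytosolic ribosome makes nearly all proteins of the cell, here including glucagon, and many mRNAs of its proteins begin with a run of pyrimidines, the terminal oligopyrimidine (TOP) motif, through which mTOR and LARP1 control their translation. The mitochondrial ribosome carries a largely different protein set, encoded in the nucleus, and makes the few membrane subunits of oxidative phosphorylation that mitochondrial DNA encodes.

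The read totals behind the FPKM values were 18629668 (β-Gal), 15523580 (NIK) and 16652922 (NIK(KA)), recovered from the deposited values. Reads recovered over genes summed to 18604569, 15494812 and 16634607, so these totals were close to the reads counted to genes. Shares of reads below are of these totals. Map3k14 stood at 5.35, 8.42 and 12.1 FPKM in the same order. All 7 α-cell markers were detected, with summed levels of 13595, 7803 and 11592 FPKM. The highest single marker made up 12093, 6955 and 10197 FPKM of these sums, so they say little of the rest. Of 6 markers of other islet cells, 5 were at 0 in every library. The 6 heart muscle genes summed to 32.4 FPKM in the β-Gal library and to 1.39 and 1.48 in the others, 3 liver genes summed to 3.86, 3.17 and 14.4, and 4 leukocyte genes to 2.49, 3.12 and 1.64. The part of these differences in the results below was not tested. In such bulk RNA, a change in the cells present and a change in RNA per cell cannot be told apart.

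The 2 classes lay at different levels. Median FPKM of the 83 cytosolic genes, taken over the mean of the libraries, was 411 (quartiles 258 and 555), 10.0 times the 41.0 of the 77 mitochondrial genes (quartiles 26.8 and 66.9). Over all 12950 genes the median was 18.3. At least 100 FPKM was reached by 74 cytosolic and 7 mitochondrial genes, so the classes overlapped little.

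In the cytosolic class, the highest level belonged to Rpl41, the shortest ribosomal protein, which lies between the subunits, at 1354, 1500.5 and 1364 FPKM in the β-Gal, NIK and NIK(KA) libraries. Sets of 3 values below follow that order of libraries. Rps2, which lines the mRNA entry channel, followed at 921, 1097 and 1139 FPKM. Rpl37a measured 1033, 975 and 1079 FPKM, and Rps21 measured 998, 1008 and 1011 FPKM. The last hardly moved between libraries. Of the mitochondrial class, Mrps21 was highest, at 179, 179 and 177 FPKM, followed by Mrpl38, Mrps33 (140.3, 133 and 143 FPKM) and Mrpl28 (117, 113 and 124 FPKM). At its low end were Mrps30 (5.80, 5.35 and 4.64 FPKM), Mrps22 (6.57, 6.28 and 7.70 FPKM) and Mrpl35 (10.3, 8.71 and 11.3 FPKM). Mrps30 is counted here by its symbol, although mitoribosome structures place it, like Mrps18a, in the large subunit.

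The sum over all matched cytosolic genes was 5.25% of all FPKM in the β-Gal library, 5.60% in NIK and 5.49% in NIK(KA). As a share of reads it was 2.41% (exact Clopper-Pearson 95% interval 2.40% to 2.42%), 2.58% (2.57% to 2.59%) and 2.53% (2.53% to 2.54%). These intervals, like those below, cover counting error alone. Both NIK viruses thus gave a larger cytosolic share than β-Gal, with no replicate to set the difference against. The mitochondrial share of reads was 0.392% (0.389% to 0.395%), 0.393% (0.390% to 0.396%) and 0.410% (0.407% to 0.413%), so that β-Gal and NIK overlapped and NIK(KA) lay above both.

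**Figure D1:**
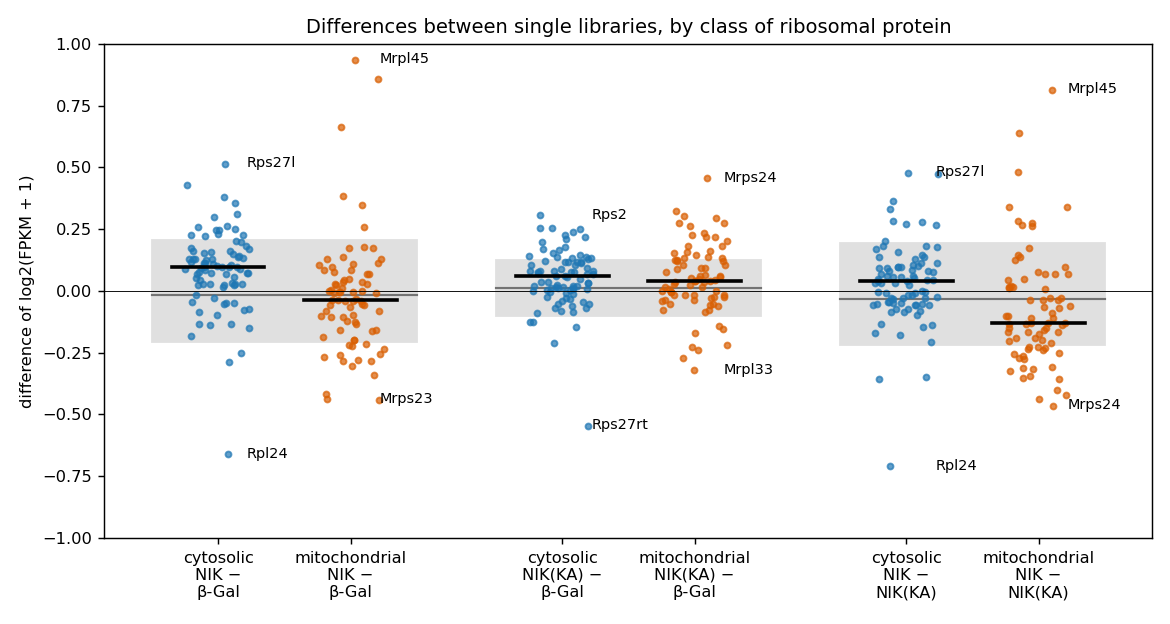
Difference of log2(FPKM + 1) for each of 83 cytosolic (blue) and 77 mitochondrial (orange) ribosomal protein genes in the 3 comparisons between single libraries; each point is a gene, black bars are class medians, the grey box spans the quartiles of all 12950 genes and the grey line is their median. Most cytosolic points lie above 0 in NIK against β-Gal (median 0.10), while the mitochondrial points spread from -0.44 (Mrps23) to 0.94 (Mrpl45).

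In cells with NIK, the cytosolic ribosomal protein genes lay slightly and rather evenly above the β-Gal level. The median difference of log2(FPKM + 1) was 0.10 (quartiles 0.02 and 0.16), beside -0.02 (-0.21 and 0.21) over all genes. Of the 83, 65 were above 0, or 78.3%, beside 47.5% of all genes. Among 6167 other genes within the range of the middle 90% of the class, the median was -0.03. That range is wide, and most of these genes lay below the class median of 411 FPKM. Over all genes the upper quartile was 46.9 FPKM. No cytosolic gene was 2-fold higher or lower, where 5.14% of all genes were 2-fold higher and 1.48% lower. At 1.2-fold, 6 of 83 were higher and 2 lower, beside 21.1% and 19.9% of all genes, so fewer members than genes in general passed that fold. The counts were 10 and 2 with median-ratio scaling and 5 and 3 with upper-quartile scaling. The 95% counting interval of the read ratio lay above 1 for 51 members (61.4%) and below 1 for 9 (10.8%), beside 26.6% and 28.1% of all genes. Such intervals narrow with reads, and most genes have fewer reads than this class. Among the 6167 genes of that range, the shares were 28.4% and 37.3%, but most of these too had lower levels than the class. The subunits were alike, with medians of 0.09 over 46 large-subunit genes and 0.10 over 33 small-subunit genes. The rest of the class were 3 stalk genes and Rps19bp1, which the symbol rule took in although it encodes a binding protein of Rps19, at 48.9, 51.3 and 57.9 FPKM.

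The highest cytosolic difference was that of Rps27l (ENSMUSG00000036781, chr9:66946086-66949516, plus strand), a paralog of Rps27 known as a p53 target. Its level was 110.1, 158 and 113 FPKM in the order β-Gal, NIK, NIK(KA), so the NIK library stood apart from the other two. The ratio of NIK to β-Gal was 1.43 (95% counting interval 1.31 to 1.57). Rps27 itself, the more abundant of the pair, measured 742, 669 and 716 FPKM and went the other way, at 0.902 (0.869 to 0.936). No near-identical copy of Rps27l was found in the annotation. The starts of the pair are shown to set the paralogs side by side, as 10 bases before and 20 after a RefSeq start site (GRCm38.p6). Capitals mark the longest pyrimidine run that touches the 5 bases on either side of the start, as far as it lies in the printed bases. The run was 9 bases for Rps27. For the first of the RefSeq starts of Rps27l it was 9 bases, begins before the printed stretch and ends before the start. For the second it was 4 bases:
Rps27, chr3:90213629-90213658, minus strand: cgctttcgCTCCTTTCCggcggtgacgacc
Rps27l, first start, chr9:66946076-66946105, plus strand: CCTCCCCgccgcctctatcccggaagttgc
Rps27l, second start, chr9:66946403-66946432, plus strand: gggCTTCagggtcactaacgggcctcgcag

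Next came Rpl35, a protein at the mouth of the exit tunnel, at 77.9, 105 and 86.3 FPKM, a ratio of 1.35 (1.23 to 1.48) in NIK over β-Gal. Rpl12, at the base of the stalk that receives elongation factors, measured 239, 311 and 284 FPKM, a ratio of 1.30 (1.25 to 1.35). For both genes NIK(KA) lay between the other libraries. Rps20, in the head of the small subunit, measured 102, 131 and 109 FPKM (1.28, 1.22 to 1.35). Rps29 and Rpl13a, named after their values were seen, completed the 6 genes past 1.2-fold. At the lower end, Rpl24 had 17, 6 and 16 reads (1.76, 0.745 and 1.85 FPKM) and Rpl36al 27, 16 and 26 reads. Their counting intervals, 0.137 to 1.13 and 0.358 to 1.37, both held 1. Well-counted genes that were lower in NIK were Rps25, known for its part in internal initiation, at 288, 242 and 279 FPKM (0.840, 0.800 to 0.882), and Rpl10, which joins the large subunit late, at 600.5, 528 and 549.9 FPKM (0.880, 0.850 to 0.910). These were the only members below β-Gal by this much with at least 100 reads in each library.

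Among proteins with further roles, Rpl5 and Rpl11 form a particle with the smallest ribosomal RNA and, when free, bind Mdm2. Rpl5 measured 331, 341 and 332 FPKM, with a NIK to β-Gal ratio of 1.03 (0.995 to 1.07), and Rpl11 553, 608 and 568 FPKM, at 1.10 (1.06 to 1.14). Of the stalk proteins, which recruit elongation factors, Rplp0 measured 684, 800.3 and 751 FPKM (1.17, 1.14 to 1.202). Rplp2 measured 709, 813 and 788 FPKM (1.15, 1.11 to 1.18). Rplp1, their partner, did not follow: it stood at 581, 564 and 554 FPKM (0.970, 0.931 to 1.01). Rps6, the substrate of S6 kinase, was at 499, 526 and 526 FPKM (1.06, 1.02 to 1.09), and Rps3, at the mRNA entry site, at 274, 300.4 and 290.2 FPKM (1.10, 1.06 to 1.13). Rpsa, also known as a laminin receptor precursor, stood at 389.6, 458 and 428 FPKM (1.17, 1.14 to 1.21). Rps19, mutated in human Diamond-Blackfan anaemia, measured 362, 434 and 383 FPKM (1.199, 1.15 to 1.24). Rpl38, needed in mice for axial patterning, was at 611, 733 and 607 FPKM (1.2001, 1.15 to 1.25), and Rpl10a at 241, 257 and 262 FPKM (1.07, 1.02 to 1.12). Each of these but Rpl5 and Rplp1 had an interval above 1, and none reached 1.3-fold.

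The other paralog pairs were each led by one gene. Rpl22 measured 265, 256 and 266 FPKM and its paralog Rpl22l1 16.9, 17.2 and 15.2 FPKM. Rpl7 stood at 439, 469 and 415 FPKM against 39.0, 43.1 and 45.8 FPKM for Rpl7l1. Rpl3 was at 283, 309 and 302 FPKM, Rpl39 at 396, 420.1 and 393 FPKM, and Rpl36a at 245, 266 and 246 FPKM. Their paralogs Rpl3l, known from heart and skeletal muscle, and Rpl39l, known from testis, fell below the filter at means of 0.152 and 0.0950 FPKM, as did Rpl10l at 0.0175. Just inside the filter were Rpl24 (1.45 FPKM), Rps27rt (1.52) and Rpl36al (1.58). Rps4x, the X-linked form, measured 347, 406 and 334 FPKM. No value is given for its paralog Rps4l.

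**Figure D2:**
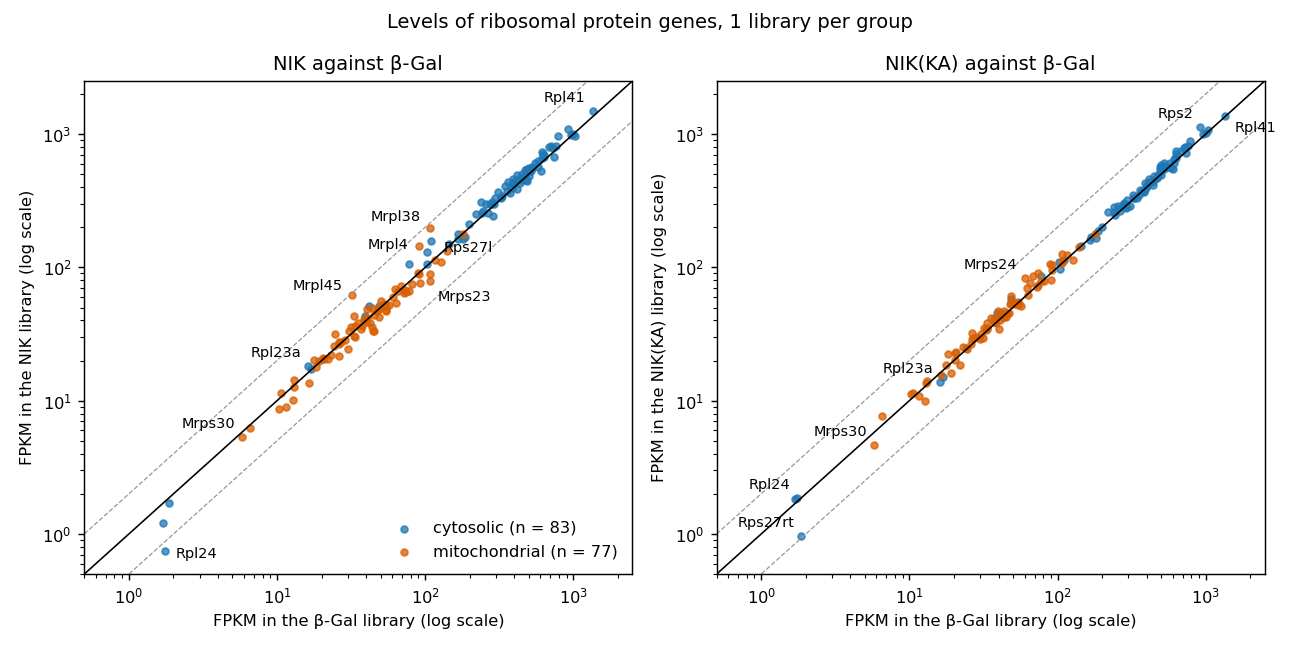
FPKM of each ribosomal protein gene in the NIK (left) and NIK(KA) (right) library against the β-Gal library, both on log axes; points are genes, blue cytosolic and orange mitochondrial, the solid line marks equal levels and dashed lines 2-fold on FPKM itself. Rpl24, with 17 and 6 reads, lies outside the dashed lines in NIK, and Mrpl45 and Mrpl38 lie just inside.

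With NIK(KA), the cytosolic genes lay closer to β-Gal. The comparisons share libraries and are not independent of each other. The median difference was 0.06 (quartiles 0.00 and 0.12), beside 0.01 (-0.10 and 0.13) over all genes, and 62 of 83 genes were above 0. No member was 2-fold different (0.263% of all genes higher, 0.417% lower). At 1.2-fold, 1 member was higher and 1 lower, beside 9.04% and 7.61% of all genes. The higher one was Rps2, with a ratio of 1.24 (1.21 to 1.27), followed by Rpl28 at 627, 706 and 748 FPKM (1.19, 1.15 to 1.23) and Rpl34 at 219, 252 and 261 FPKM (1.19, 1.13 to 1.26). The lower one was Rps27rt, a near copy of Rps27, with 13, 10 and 6 reads, a ratio of 0.516 and an interval from 0.161 to 1.46. Rpl23a, a docking site of the signal recognition particle, measured 16.2, 18.2 and 13.9 FPKM, with an interval for NIK(KA) over β-Gal of 0.674 to 1.08. Counting intervals lay above 1 for 41 members (49.4%) and below 1 for 8 (9.64%), beside 19% and 14.4% of all genes. Among the 6167 other genes in the range of the class, mostly at lower levels, the shares were 26.2% and 19.7%.

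Between the 2 NIK viruses, the cytosolic genes were close: the median of NIK minus NIK(KA) was 0.04 (quartiles -0.05 and 0.10), beside -0.03 over all genes, and 47 of 83 were above 0. At 1.2-fold, 8 were higher and 3 lower in NIK, beside 20.6% and 20.7% of all genes, and 4 and 3 with upper-quartile scaling. None was 2-fold different (background 5.07% higher, 1.1% lower). Intervals lay above 1 for 32 (38.6%) and below 1 for 17 members (20.5%), beside 24.6% and 30.4% of all genes. Among the 6167 other genes in the range of the class, mostly at lower levels, the shares were 25.4% and 40.4%. Rps27l led, with 1.40 (1.28 to 1.53). Rpl19, which bridges the subunits, measured 309, 367 and 291 FPKM (1.26, 1.19996 to 1.32), so its NIK(KA) value was the lowest of the libraries. Rpl36 did the reverse, at 489, 445 and 566 FPKM (0.786, 0.748 to 0.826). Over the libraries together, β-Gal was lowest for 51 of 83 cytosolic genes (61.4%, beside 30.7% of all genes), and NIK was highest for 45 (54.2%, beside 37.2%).

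Many cytosolic genes shared more at their start sites than the rule used. RefSeq promoter windows (GRCm38.p6, 250 bases before to 50 after the start) were matched for 63 cytosolic and 68 mitochondrial genes. A pyrimidine run of at least 7 bases that touched the 5 bases on either side of the start was present for 28 cytosolic genes (44.4%) and 9 mitochondrial genes (13.2%), beside 15.7% of all genes with a window and 16.5% of protein-coding genes past the filter. A TOP start is a pyrimidine run at the first base of the mRNA. The run counted here need only lie near the start, so these shares are not counts of TOP starts. In Rpl13a, the run begins after the start. Shown with the run in capitals are 4 cytosolic examples and the widest mitochondrial difference, Mrpl45:
Rpl35, chr2:39005112-39005141, minus strand: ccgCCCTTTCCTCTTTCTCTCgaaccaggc
Rpl13a, chr7:45128726-45128755, minus strand: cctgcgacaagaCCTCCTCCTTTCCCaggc
Rplp2, chr7:141447641-141447670, plus strand: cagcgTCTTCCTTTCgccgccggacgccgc
Rpl38, chr11:114668570-114668599, plus strand: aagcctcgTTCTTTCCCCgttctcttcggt
Mrpl45, chr11:97315706-97315735, plus strand: cgcgcgCCCCTCCCCTggagagcgtgcgcg

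Further motifs were counted by their letters on both strands of the whole window. The ETS-family letters CCGGAAG were found for 25 cytosolic genes (39.7%) and 25 mitochondrial genes (36.8%), beside 9.93% of all genes with a window and 21.7% of protein-coding genes past the filter. AAGATGGC, the YY1 letters, occurred for 6 cytosolic (9.52%) and 12 mitochondrial genes (17.6%), beside 3.19% of all and 5.71% of protein-coding genes past the filter. A 10-base NRF1 site occurred for 2 (3.17%) and 3 (4.41%), beside 1.07% of all and 2.58% of protein-coding genes past the filter. A 10-base NF-κB site occurred for 0 of 63 and 0 of 68, beside 0.174% of all genes and 0.248% of protein-coding genes past the filter, which says only that this one spelling was not in the windows. ETS and YY1 letters stood together in 3 mitochondrial windows and never overlapped. The presence of CCGGAAG went with no visible difference between libraries: in NIK against β-Gal the cytosolic median was 0.09 with and 0.09 without it, and the mitochondrial -0.01 and -0.04.

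The mitochondrial class had more genes below β-Gal than above it in NIK cells, with a few genes far above the rest. Its median difference from β-Gal was -0.04 (quartiles -0.16 and 0.07), beside -0.02 over all genes, and lay 0.13 below the cytosolic median. Of 77 genes, 30 were above 0 (39.0%, beside 47.5% of all genes). None was 2-fold different, and at 1.2-fold 5 were higher and 9 lower. Both counts are smaller shares than the 21.1% and 19.9% of all genes. They were 5 and 4 with a pseudocount of 5, and 5 and 12 with upper-quartile scaling. Intervals lay above 1 for 9 members (11.7%) and below 1 for 21 (27.3%), beside 26.6% and 28.1% of all genes, so the lower share was near that of all genes. Among other genes in the range of the middle 90% of this class, the shares were 28.4% and 33.2%. With subunits taken from the symbol, the large subunit had 23 of 48 genes above 0 (median -0.0042) and the small subunit 7 of 29 (median -0.06). This puts Mrps30 and Mrps18a in the small subunit.

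Mrpl45 (ENSMUSG00000018882, chr11:97315716-97329920, plus strand), which in human mitoribosomes anchors the exit site to the inner membrane, showed the widest difference of all 160 genes. It measured 32.0, 62.1 and 34.9 FPKM, a NIK to β-Gal ratio of 1.94 (1.78 to 2.11). Mrpl38 (ENSMUSG00000020775, chr11:116131817-116138868, minus strand), a protein of the central protuberance, measured 108, 197 and 126 FPKM, at 1.82 (1.71 to 1.94). Mrpl4 (ENSMUSG00000003299, chr9:21002738-21008839, plus strand) measured 91.2, 145 and 104 FPKM, at 1.59 (1.49 to 1.70). In all 3 genes NIK was far above both other libraries, while the intervals for NIK(KA) over β-Gal were 0.991 to 1.1999, 1.09 to 1.25 and 1.06 to 1.22. Mrpl39 followed at 33.1, 43.5 and 34.2 FPKM (1.31, 1.197 to 1.44), and Mrps35, named after its value was seen, at 24.5, 31.4 and 24.6 FPKM (1.28, 1.17 to 1.41). None of Mrpl45, Mrpl38, Mrpl4 and Mrpl39 had a near-identical copy in the annotation.

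At the other end, Mrps23 measured 108, 79.2 and 108 FPKM, a NIK to β-Gal ratio of 0.735 (0.680 to 0.794). Mrps6 measured 45.4, 33.2 and 44.8 FPKM (0.732, 0.645 to 0.831), and Mrpl24, near the exit tunnel, 44.7, 33.2 and 42.8 FPKM (0.743, 0.665 to 0.829). Mrpl1, of the mobile stalk, measured 11.5, 8.90 and 10.9 FPKM (0.771, 0.677 to 0.876). For each of these 4 genes the counting interval of NIK(KA) over β-Gal held 1, and NIK was the library apart.

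**Figure D3:**
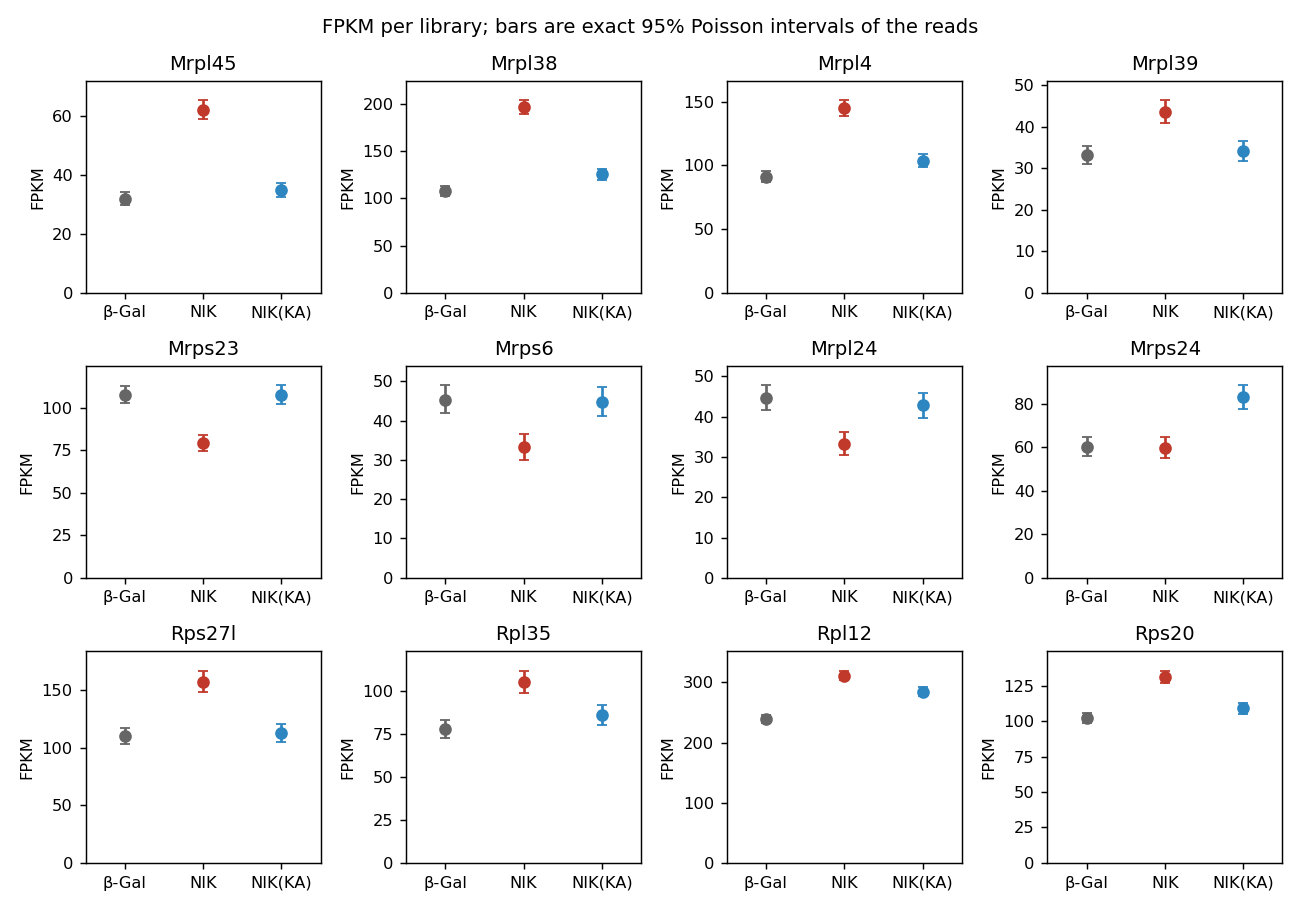
FPKM of 12 ribosomal protein genes in the β-Gal (grey), NIK (red) and NIK(KA) (blue) library; points are single libraries, bars are exact 95% Poisson intervals of the reads (counting error alone) and each axis starts at 0. Mrpl45, Mrpl38, Mrpl4 and Rps27l are highest in NIK, Mrps23, Mrps6 and Mrpl24 are lowest there, and Mrps24 is highest in NIK(KA) at 83.0 FPKM.

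In the NIK(KA) library, other mitochondrial genes differed most from β-Gal. The class median of the difference from β-Gal was 0.04 (quartiles -0.02 and 0.14), with 49 of 77 above 0. At 1.2-fold, 7 were higher (9.09%) and 2 lower (2.60%), beside 9.04% and 7.61% of all genes. The higher share was thus that of genes in general. It was above that of other genes in the range of the middle 90% of this class, of which 5.80% were higher and 3.36% lower. The class counts were 4 and 2 with median-ratio or upper-quartile scaling. Mrps24 measured 60.3, 59.9 and 83.0 FPKM (1.38, 1.25 to 1.52), Mrps12, of the decoding centre, 68.7, 72.9 and 86.2 FPKM (1.25, 1.14 to 1.38), and Mrps7 48.8, 48.8 and 60.5 FPKM (1.24, 1.14 to 1.34). Mrpl34 measured 73.5, 68.2 and 90.3 FPKM (1.23, 1.12 to 1.35). In each the NIK(KA) library was highest while β-Gal and NIK were close. Lower in NIK(KA) were Mrpl33 (12.8, 10.2 and 10.0 FPKM, 0.785, 0.645 to 0.954) and Mrps30 (0.799, 0.682 to 0.935). Mrps31 stood at 21.9, 20.7 and 18.6 FPKM (0.848, 0.764 to 0.940), and Mrps18c at 19.2, 19.8 and 16.1 FPKM, with an interval from 0.663 to 1.06. Its paralogs Mrps18a and Mrps18b had ratios of 1.02 (0.933 to 1.13) and 1.03 (0.876 to 1.21). Intervals lay above 1 for 20 of the 77 (25.97%) and below 1 for 7 (9.09%), beside 19% and 14.4% of all genes. Among other genes at similar levels, the shares were 22.6% and 17.2%.

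NIK against NIK(KA) gave the lowest mitochondrial median, -0.13 (quartiles -0.23 and 0.04), beside -0.03 over all genes, 0.17 below the cytosolic median. Here 52 of 77 were below 0, and at 1.2-fold 8 were higher and 14 lower, beside 20.6% and 20.7% of all genes, and 5 and 16 with upper-quartile scaling. Intervals lay below 1 for 32 members (41.6%) and above 1 for 8 (10.4%), beside 30.4% and 24.6% of all genes. Among other genes at similar levels, the shares were 36.2% and 25.7%. Mrpl45 again led with 1.78 (1.63 to 1.94), and Mrps24 was lowest with 0.721 (0.650 to 0.799). Among genes whose loss causes mitochondrial translation defects in humans, Mrps34 measured 18.3, 17.7 and 22.3 FPKM and Mrpl12 39.9, 38.9 and 47.1 FPKM. Their NIK to NIK(KA) ratios were 0.796 (0.690 to 0.918) and 0.826 (0.743 to 0.918), so that NIK(KA) was the high library in both. Mrpl3, at 26.3, 27.7 and 32.1 FPKM, gave 0.864 (0.774 to 0.964), and Mrps22 gave 0.816 (0.681 to 0.976). Mrps16 (13.1, 12.6 and 14.1 FPKM), Mrpl44 (30.6, 33.1 and 31.5 FPKM) and Mrpl10 (62.4, 68.5 and 69.9 FPKM) had intervals that held 1. NIK was lowest for 40 of 77 mitochondrial genes (51.9%, beside 44.0% of all genes), and NIK(KA) was highest for 37 (48.1%, beside 32.2%).

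Some of the genes that were higher in NIK lay close to genes that differed far more. Mrpl4 lies upstream of Icam1, an adhesion molecule and NF-κB target, which begins 7146 bases beyond its end and had 2, 781 and 1 reads in the same order of libraries. Trim65, 689 bases from Mrpl38, measured 3.04, 8.51 and 3.58 FPKM. Mir155hg, the host transcript of miR-155, lies 2331 bases from Mrpl39, with 0, 22 and 5 reads, below the filter. Mrpl45 had no such neighbour: within 50 kb, the neighbours past the filter were Socs7, Gpr179 and Npepps, and none was 2-fold higher. A neighbour within 50 kb whose NIK level was at least 2-fold that of the control was present for 15 of 83 cytosolic genes (18.1%) and 6 of 77 mitochondrial genes (7.79%), beside 9.86% of all genes. The members with and without such a neighbour had medians of 0.09 and 0.10 in the cytosolic class and -0.04 and -0.03 in the mitochondrial class. Rps14, whose neighbour Cd74 differed by 5.21 on the log2(FPKM + 1) scale, differed by 0.12, and Mrps23, beside Cuedc1 at 1.92, by -0.44. Reads from neighbouring transcripts counted to a member were not tested for.

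**Figure D4:**
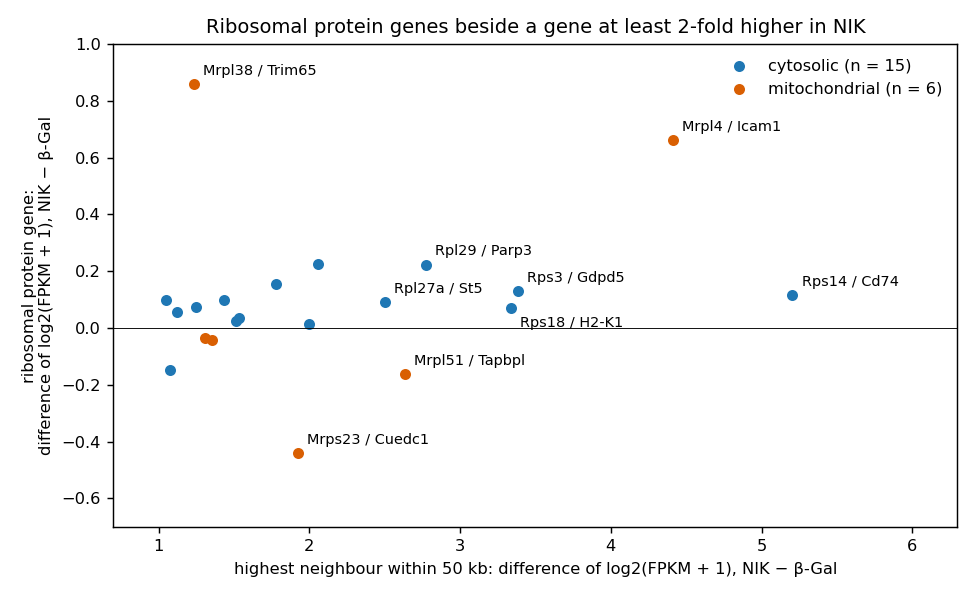
Each ribosomal protein gene with a neighbour within 50 kb with a NIK level at least 2-fold that of the control, 15 cytosolic (blue) and 6 mitochondrial (orange); the horizontal axis is the highest neighbour's difference of log2(FPKM + 1) and the vertical axis that of the ribosomal protein gene, both NIK minus β-Gal. Mrpl38 and Mrpl4 lie high, Mrps23 lies low and the cytosolic genes lie between -0.15 and 0.23.

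Copies in the genome limit how surely reads belong to a member. Of the 83 cytosolic genes, 75 had at least 1 other annotated gene with 95% identity over 80% of the coding sequence, up to 55 for Rpl21, while 12 of 77 mitochondrial genes had one. The labels do not say how such reads were counted. The 8 cytosolic genes without a copy had a median NIK minus β-Gal difference of 0.12, and the 65 such mitochondrial genes -0.01. For Rpl13a, Rpl24, Rpl36al and Mrpl53, a second gene on the same strand at the same place holds at least 80% of the coding sequence without a mismatch. Their mean levels were 46.1, 1.45, 1.58 and 0 FPKM, far under the class medians of 411 and 41.0, so these levels are uncertain, and Mrpl53 is listed at 0 in every library.

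Genes around the ribosome were taken from lists chosen with earlier results known. Of 47 genes of cytosolic ribosome biogenesis, the median was -0.08 in NIK and 0.09 in NIK(KA) against β-Gal, and -0.17 between NIK and NIK(KA). At 1.2-fold in NIK against β-Gal, 3 were higher (6.38%) and 6 lower (12.8%), beside 21.1% and 19.9% of all genes. Against NIK(KA), 1 was higher (2.13%) and 10 lower (21.3%), beside 20.6% and 20.7%. Wdr12, a large-subunit assembly factor, measured 54.7, 41.1 and 51.0 FPKM, and Nop14, of the small-subunit processome, 70.6, 53.9 and 66.6 FPKM. Eif6, which keeps the subunits apart, measured 210, 277 and 241 FPKM, and Npm1, a nucleolar chaperone, 458, 567 and 464 FPKM. The biogenesis list and the cytosolic ribosomal proteins thus had medians on opposite sides of 0 in NIK against β-Gal, with no test of that difference possible.

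Of 17 elongation factors and other TOP mRNAs, the medians were 0.02, 0.01 and 0.06 in the comparisons NIK against β-Gal, NIK(KA) against β-Gal and NIK against NIK(KA). Pabpc1, the poly(A)-binding protein, measured 487, 663 and 519 FPKM, Eif3f, an initiation factor subunit, 74.0, 93.6 and 82.0 FPKM, Eef1a1 1474, 1701 and 1484 FPKM and Tpt1 449.6, 376 and 432 FPKM. The last was thus lowest where the others were highest. Among 15 genes that control ribosomal protein synthesis, Myc, a transcription factor that drives ribosome biogenesis, was the one past 2-fold, at 2.72, 20.8 and 3.05 FPKM, a ratio of 7.63 (6.07 to 9.70). That is 6.67% of the list, beside 5.14% of all genes. Mdm2, the ligase bound by Rpl5 and Rpl11, measured 56.7, 95.04 and 61.0 FPKM. Pdcd4, an inhibitor of translation initiation, measured 40.0, 24.1 and 34.8 FPKM, and Mtor 49.9, 41.3 and 53.1 FPKM. The median of that list was -0.04 in NIK against β-Gal.

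Of 30 genes of mitochondrial translation and mitoribosome assembly past the filter, NIK was higher than the control for 2 and lower for 2 at 1.2-fold (6.67% each, beside 21.1% and 19.9% of all genes), and the median was -0.02. Tfb1m, which methylates the small mitochondrial rRNA, measured 3.60, 5.15 and 3.85 FPKM, Noa1, an assembly GTPase, 33.9, 41.1 and 42.8, Rpusd4, a pseudouridine synthase, 12.3, 9.81 and 13.1, and Lrpprc, which stabilises mitochondrial mRNAs, 157, 129 and 149.5 FPKM. The ribosomal RNAs of the mitochondrion measured 262, 246 and 240.4 FPKM (mt-Rnr1) and 667, 629 and 662 FPKM (mt-Rnr2). The 12 mitochondrially encoded protein genes past the filter, which this ribosome translates, had medians of -0.04, -0.12 and 0.06 in the 3 comparisons. Some ribosomal proteins carry other symbols. Fau, the precursor of a small-subunit protein, stood at 662, 732 and 807 FPKM. Rack1, a scaffold on the small subunit, measured 113, 131 and 112 FPKM. The mitochondrial small-subunit proteins Dap3 (96.6, 85.3 and 90.9 FPKM) and Ptcd3 (117, 96.7 and 109 FPKM) were lowest in NIK.

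**Figure D5:**
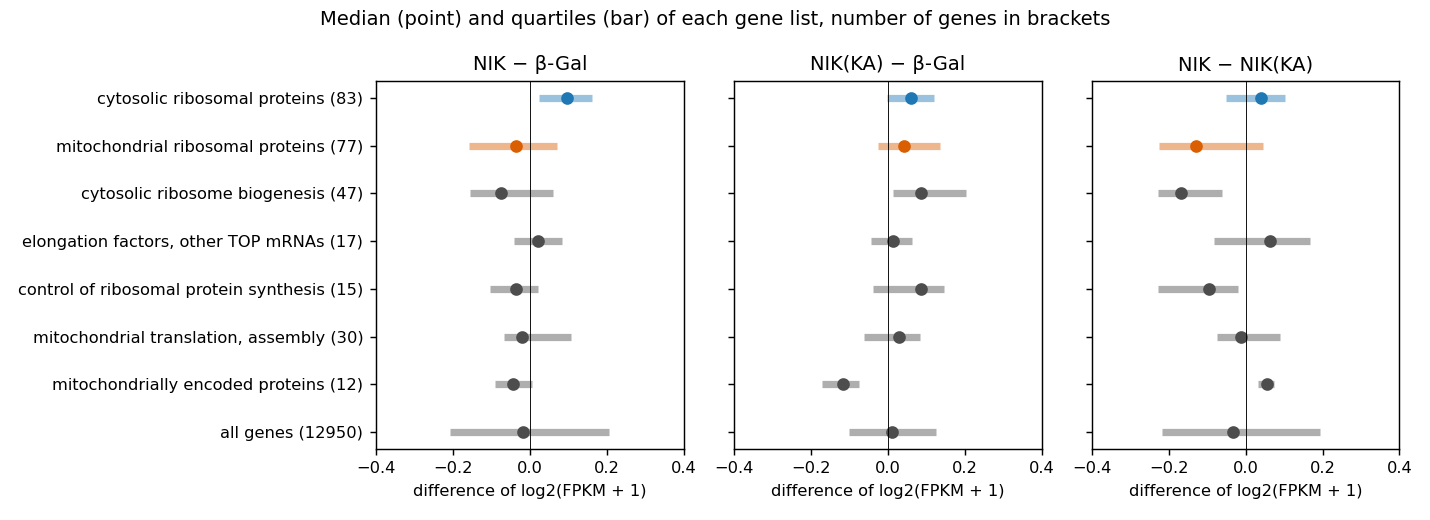
Median (point) and quartiles (bar) of the difference of log2(FPKM + 1) for the ribosomal protein classes, the lists around them and all genes, in the 3 comparisons between single libraries. The cytosolic class has its quartiles above 0 in NIK against β-Gal (0.02 and 0.16), and the biogenesis list has both below 0 in NIK against NIK(KA).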

How the data were processed

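RNA of αTC1-6 cells was sequenced as 1 library for each of 3 groups. The alignment and counting tools named in the submitters' processing notes are TopHat2 and HTSeq 0.6.1, with the build GRCm38; the strand setting and the treatment of multi-mapped reads are not stated. The tables the authors deposited hold FPKM per Ensembl gene. All 3 columns of values were used and 0 were left out.

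Symbols came from GENCODE M21 (52489 of 52948 IDs matched). Reads were recovered from the FPKM steps and the annotated mean transcript length within a tolerance of 0.0001, for 26538 of 26584 detected genes (99.8%). This served for counting intervals and shares only; a count model was not fitted, since 1 library a group leaves no residual. Simulated reads were Poisson at the annotated lengths, the model behind the intervals. The exact intervals then held the true ratio for 95.4% of 9753 genes, which checks the calculation alone. Comparisons are differences of log2(FPKM + 1), which understate the change of low genes, over genes with a mean of at least 1 FPKM; Map3k14, the overexpressed gene, was left out of these. Thresholds of 1.2-fold and 2-fold refer to that scale, and intervals to read ratios per library total. Depth gave a median half-width of 0.05 (cytosolic) and 0.14 (mitochondrial) log2 units for NIK against β-Gal.

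Copies were searched with BLAST+ 2.17.0 among annotated transcripts. Genes named in the text were the 4 highest and 4 lowest of each class and comparison, the 4 most and 3 least abundant, and fixed sets of paralogs and well-known members; of other lists, the 4 widest in NIK against β-Gal, and Fau, the widest of its list in NIK(KA) against β-Gal. One gene of the list of ribosomal proteins under other symbols is not reported here. The members and lists were chosen with earlier results of these data known. Alternatives were other pseudocounts, filters and scalings, and restriction to members without copies or with at least 100 reads. Python 3.11.15, pandas 2.3.3, NumPy 2.4.6 and SciPy 1.17.1 were used.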

Additional observations from a re-analysis of the deposited data

How the results depend on the processing

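Of 249 values recomputed under an alternative, 221 stayed within the limits set for them. All 81 recomputed medians, of the classes and of the difference between them, kept their sign. The limit for a class median was the median half-width of the members' counting intervals. For mitochondrial genes it was 0.14, 0.14 and 0.15 in the 3 comparisons, wider than the medians of -0.04, 0.04 and -0.13 themselves. For cytosolic genes in NIK against NIK(KA) it was 0.06, beside a median of 0.04. Staying within such limits says little. The difference between classes took the wider limit, which also exceeded it in both comparisons with β-Gal. The cytosolic median in NIK against β-Gal went from 0.10 to 0.06 with upper-quartile scaling and still counted as staying. With no filter, a minimum of 5 FPKM or at least 100 reads, the mitochondrial class kept the same 77 genes. Its values could not move there. In the cytosolic class, a minimum of 5 FPKM and at least 100 reads left the same 80 genes, so these settings were not separate checks. No paired analysis was possible because each group was 1 library, and for the same reason no library was left out. Restrictions to members without a copy or with at least 100 reads were chosen after the data were seen.

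Counts at 1.2-fold moved most. For cytosolic genes in NIK against β-Gal, 6 higher became 10 with median-ratio scaling and 1 without copies, and 2 lower became 0 with a pseudocount of 5, a minimum of 5 FPKM, no copies or at least 100 reads. In NIK(KA) against β-Gal, 1 higher became 0 without copies, and 1 lower became 0 under those same 4 settings. In NIK against NIK(KA), 8 higher became 4 with upper-quartile scaling and 1 without copies, and 3 lower became 1 with a pseudocount of 5, a minimum of 5 FPKM or at least 100 reads, and 0 without copies. With a pseudocount of 0.1, 1 cytosolic gene passed 2-fold in each NIK comparison. For mitochondrial genes, a pseudocount of 5 took 9 lower to 4 in NIK against β-Gal, 7 higher to 4 and 2 lower to 0 in NIK(KA) against β-Gal, and 8 higher to 5 and 14 lower to 9 in NIK against NIK(KA). Median-ratio and upper-quartile scaling also gave 4 for the 7, and upper-quartile scaling 5 for the 8. The restriction to members without copies left 8 cytosolic genes and a larger pseudocount shrinks low genes by construction; other causes were not tested. The summed cytosolic level of NIK(KA) over β-Gal was 1.04 as a share of FPKM and 1.05 as a share of reads.

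With 1 library a group, no difference has a biological or technical spread beside it, and below 100 reads (Rpl24, Rpl36al, Rps27rt) counting error alone was wider than the differences.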
